A study of Mus musculus with 5 samples.

Results

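The 10 protein-coding genes from Hoxa2 to Hoxa13 were taken by name, and the stretch described is the chromosome segment from the first to the last of them with a margin of 10 kb on either side, at chromosome 6, 52152417 to 52270880 of the mouse build GRCm38, a length of 118464 bp. They are 10 of 55450 annotated genes. The measurement was ChIP-seq of H3K27me3 (trimethylation of lysine 27 of histone H3) in dermal fibroblasts of wild-type mouse skin, with 2 libraries at E14.5 and 2 at E18.5 and a separate list of broad peaks for each. The stage names are those of the study, whereas the sample labels give embryonic days 14 and 17. All 4 libraries came from dermal preparations grown in culture before the assay, so that each stage is represented by expanded fibroblasts, with no body site of the skin stated and no treatment or mutation in either group. The labels do not say whether replicates came from separate animals or cultures, so the spread between them may be technical. The input library was not analysed here.

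Hox genes encode homeodomain transcription factors that give cells their position along the body, and they lie in clusters in which the order of the genes follows the order of their domains from anterior to posterior. In cells where a Hox gene is silent, Polycomb repressive complex 2 places H3K27me3 over it, commonly as a broad domain across neighbouring genes, and fibroblasts keep a Hox pattern that reflects the part of the body they came from. All 10 genes are transcribed from the minus strand, so the anterior gene Hoxa2 lies at the low coordinates and the posterior gene Hoxa13 at the high ones.

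The lists differed in size, and values below are given in the order E14.5 replicate 1, E14.5 replicate 2, E18.5 replicate 1 and E18.5 replicate 2. They held 21546, 16574, 10429 and 7107 peaks, covering 52.805, 32.078, 19.996 and 14.337 Mb of the genome. Read depth cannot be read from a peak list and was not measured here. A list is also cut at a threshold, so a base outside a peak was not called and is not shown to lack the mark. Of the 55450 annotated genes, 6.98% had peak cover within 3000 bp of a start site in all 4 libraries. In at least 1 library 9083 genes had it. None of 10 dermal fibroblast markers had peak cover within 3000 bp of its start sites in any library, including Col1a1, Pdgfra and Twist2. Cover was uncommon among genes in general, so its absence at a few markers does not identify the cells. Of the markers of other cells, 2 of 5 keratinocyte genes (Epcam and Cdh1), 1 of 4 endothelial genes (Kdr), 1 of 4 melanocyte and Schwann cell genes (Sox10) and 2 of 3 skeletal muscle genes (Pax7 and Myod1) had a peak in all 4, and none of 3 immune genes had one in any.

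Sequences of the promoters, taken from RefSeq on GRCm38.p6 as 250 bases before to 50 bases after a start, were found for 9 of the 10 genes, Hoxa4 being the exception. Those of Hoxa2, Hoxa5, Hoxa11 and Hoxa13 are shown because they span the behaviours described below, from a promoter inside peaks in every library (Hoxa2 and Hoxa11) to promoters that fell in a gap between peaks in some libraries (Hoxa5 and Hoxa13). Capitals mark CpG dinucleotides, which read the same on both strands. At least 1 CpG is present in 94.6% of the 32851 promoters of the table, and the median number is 7.
Hoxa2, chr6:52164782-52165081, minus strand: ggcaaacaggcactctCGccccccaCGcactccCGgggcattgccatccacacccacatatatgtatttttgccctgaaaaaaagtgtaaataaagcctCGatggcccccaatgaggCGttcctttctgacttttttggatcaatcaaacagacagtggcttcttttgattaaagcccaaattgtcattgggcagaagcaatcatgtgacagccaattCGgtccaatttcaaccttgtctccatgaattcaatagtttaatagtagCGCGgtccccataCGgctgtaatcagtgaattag
Hoxa5, chr6:52204538-52204837, minus strand: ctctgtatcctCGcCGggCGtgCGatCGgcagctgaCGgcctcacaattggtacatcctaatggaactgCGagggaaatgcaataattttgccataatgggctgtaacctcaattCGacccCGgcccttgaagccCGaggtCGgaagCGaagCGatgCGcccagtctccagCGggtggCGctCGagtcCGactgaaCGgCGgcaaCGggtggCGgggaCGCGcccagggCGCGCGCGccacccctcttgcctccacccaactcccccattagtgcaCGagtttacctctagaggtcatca
Hoxa11, chr6:52245761-52246060, minus strand: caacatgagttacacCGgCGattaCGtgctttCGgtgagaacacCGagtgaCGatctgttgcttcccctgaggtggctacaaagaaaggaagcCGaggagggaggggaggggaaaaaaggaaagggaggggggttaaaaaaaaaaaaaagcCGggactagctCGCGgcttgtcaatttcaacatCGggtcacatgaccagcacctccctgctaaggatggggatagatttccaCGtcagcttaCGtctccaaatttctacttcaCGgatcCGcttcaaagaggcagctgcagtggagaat
Hoxa13, chr6:52260831-52261130, minus strand: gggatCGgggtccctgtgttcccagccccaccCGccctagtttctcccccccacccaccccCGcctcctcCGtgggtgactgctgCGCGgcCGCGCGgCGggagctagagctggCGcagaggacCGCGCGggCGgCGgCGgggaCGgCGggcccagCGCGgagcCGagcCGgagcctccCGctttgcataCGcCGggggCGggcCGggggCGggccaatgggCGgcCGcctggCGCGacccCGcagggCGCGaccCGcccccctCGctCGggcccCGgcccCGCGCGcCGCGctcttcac
The Hoxa13 promoter was the richest of these, with 45 CpGs and a GC content of 81.0%, and 1.93% of all promoters hold as many CpGs. Hoxa5 held 29 CpGs at 61.7% GC, Hoxa11 held 15 at 51.0% and Hoxa2 held 9 at 45.7%.

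Peaks covered most of the Hoxa stretch in every library, and less of it in both E18.5 libraries than in either E14.5 library. The covered length was 107866, 97457, 88892 and 78283 bp, or 91.1%, 82.3%, 75.0% and 66.1% of the stretch. The groups did not overlap, although the lower E14.5 library and the higher E18.5 library were closer to each other than the libraries within either stage. The mean was 102662 ± 7360 bp at E14.5 and 83588 ± 7502 bp at E18.5 (SD, n = 2 each), which is 18.6% lower at E18.5 (exact permutation test, two-sided, p = 0.333). With 2 libraries against 2 this p is the smallest the design allows, so no comparison between the stages could reach 0.05. Over the whole lists the covered length was 59.6% lower at E18.5 (42.4 ± 14.7 Mb against 17.2 ± 4.001 Mb, n = 2 each), and the libraries stood in the same order in the Hoxa stretch as in the lists. When each list was reduced from its strongest peaks to the covered length of the shortest list, the Hoxa share was 82.0%, 64.5%, 68.7% and 66.1%. In those lists E14.5 replicate 2 stood below both E18.5 libraries, the mean was 8.02% lower at E18.5 and the exact permutation p was 1. Reduced instead to 7107 peaks each, the lists gave 91.1%, 81.2%, 73.3% and 66.1%, with the mean 19.05% lower at E18.5.

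**Figure D1:**
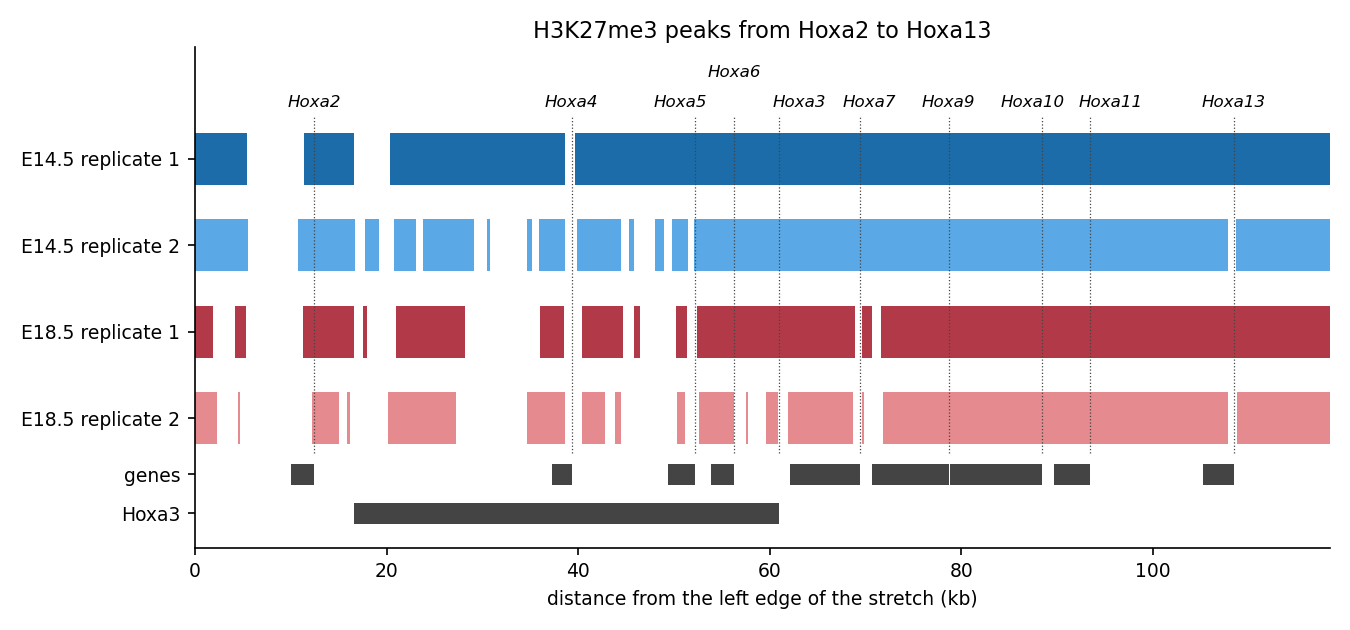
H3K27me3 peaks (coloured blocks) of the 4 libraries along the Hoxa stretch, with distance from its left edge in kb on the x axis, the genes as grey bars (Hoxa3 on a row of its own) and dotted lines at each gene's 5′ end. The right-hand part, from Hoxa9 to Hoxa13, was filled in every library apart from short gaps, while the left-hand part was divided into 3 gaps in E14.5 replicate 1 and 13 in E18.5 replicate 2.

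The bases covered were largely the same ones. Of the stretch, 74881 bp (63.2%) lay in peaks of all 4 libraries, and the longest uninterrupted run of such bases was 36049 bp. A further 7773 bp (6.56%) were covered at E14.5 in both replicates and at E18.5 in none, 9175 bp (7.74%) in E14.5 replicate 1 only, and 203 and 204 bp in only E18.5 replicate 1 or only E18.5 replicate 2. Expressed as shared bases over the union of a pair, the E14.5 libraries shared 86.5% and the E18.5 libraries 82.7%, while the pairs across stages shared from 72.2% to 86.3%. The ranges overlap, so libraries of a stage were not set apart from libraries of different stages by this measure.

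The stretch was not covered evenly from end to end. It was divided, after its values had been seen, at the first base of Hoxa9 (chromosome 6, 52223100), since Hoxa9 to Hoxa13 form the posterior class of Hox genes related to the fly gene Abdominal-B. From Hoxa9 to the right edge, a length of 47781 bp, peaks covered 100%, 98.3%, 98.1% and 95.7%. From the left edge to Hoxa9, a length of 70683 bp that holds Hoxa2 to Hoxa7, they covered 85.0%, 71.4%, 59.5% and 46.1%. The posterior values lay within a few points of each other, and those of E14.5 replicate 2 and E18.5 replicate 1 were nearly the same. In the anterior part the mean was 78.2 ± 9.59% at E14.5 and 52.8 ± 9.47% at E18.5 (SD, n = 2 each), 32.5% lower, whereas in the posterior part it was 99.1 ± 1.21% and 96.9 ± 1.69%, 2.301% lower. The log2 ratio of the posterior over the anterior share was 0.23, 0.46, 0.72 and 1.05, with a difference between stage means of 0.54 (exact permutation test, two-sided, p = 0.333).

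The peaks of the posterior part had −log10 q values from 9.01 to 34.8, so a threshold below that range cannot remove them, and the values that follow describe the strength of the peaks and do not test a difference between the parts. With only peaks at a −log10 q of at least 5, the posterior shares were again 100%, 98.3%, 98.1% and 95.7%. The anterior shares were then 77.5%, 56.5%, 36.1% and 1.76%. In lists of equal covered length the posterior shares were the same once more, and the anterior shares were 69.8%, 41.7%, 48.8% and 46.1%, with the stages overlapping.

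**Figure D2:**
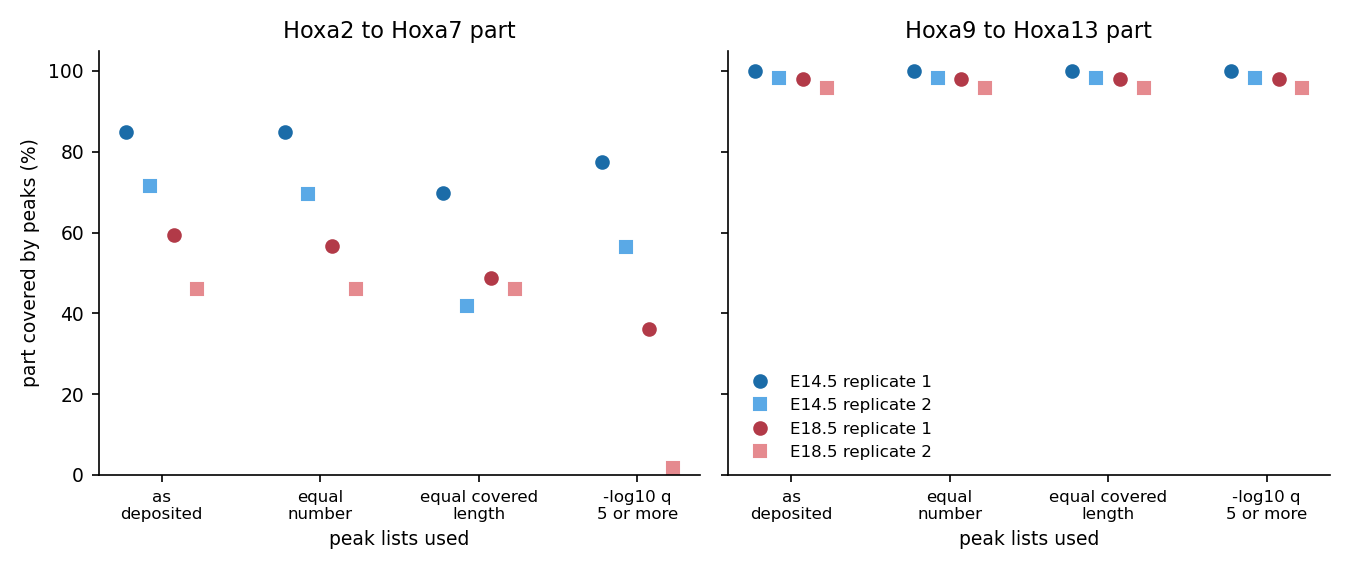
Share of the part before Hoxa9 (left) and of the part from Hoxa9 (right) covered by peaks, in percent on the y axis, for the lists as deposited, lists of equal number, lists of equal covered length and lists limited to a −log10 q of 5 or more, with a point for each library. The posterior part stays at 95.7% or above in every setting, whereas the anterior part of E18.5 replicate 2 goes from 46.1% to 1.76%.

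Each library held its posterior genes in a block that was among the widest peaks of its list. The peak over the Hoxa11 start was 90353, 55807, 54052 and 36050 bp wide and ranked 3, 3, 3 and 7 by width in its list. In E14.5 replicate 1 it ran from 52192045 to 52282397 and held start sites of Hoxa3 and of every gene from Hoxa5 to Hoxa13. In E14.5 replicate 2 it began at 52204495, inside Hoxa5, and ended at 52260301, within Hoxa13. In E18.5 replicate 1 and replicate 2 it began at 52224027 and 52224253, both inside Hoxa9. The right edge of the block was at 52260301 in E14.5 replicate 2 and at 52260302 in E18.5 replicate 2. Its fold enrichment over background was 9.79, 7.101, 5.66 and 5.58, at percentiles 99.9, 98.1, 99.1 and 98.8 of its own list. Over the stretch the peaks' fold enrichment reached from 3.04 to 9.79, and the lowest value of each library belonged to a peak before Hoxa9. Fold enrichment depends on the depth and background of each library, so it is given as a rank within a list and was not compared between stages.

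Breaks, meaning uncovered gaps between the first and the last covered base of the stretch, numbered 3, 13, 11 and 15. E14.5 replicate 2 had more than E18.5 replicate 1, and the stages overlapped. The mean was 8 ± 7.07 at E14.5 and 13 ± 2.83 at E18.5 (SD, n = 2 each; exact permutation test, two-sided, p = 0.667). Without E14.5 replicate 1 the difference between stage means was 0. Their summed length was 10598, 21007, 29572 and 40181 bp and did not overlap between the stages (exact permutation p = 0.333). Breaks wholly before Hoxa9 numbered 3, 12, 10 and 13, and breaks wholly from Hoxa9 on numbered 0, 1, 1 and 1. The posterior break of E18.5 replicate 1, 927 bp long, began on the first base of Hoxa9, and 1 further break of E18.5 replicate 2 spanned that base.

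Bases that no library covered came to 7938 bp (6.70% of the stretch) in 4 segments. The longest, 5159 bp at 52157965 to 52163123, reached into the 3′ end of Hoxa2 and held most of Hotairm1, an antisense long non-coding RNA gene at the anterior end of the cluster. A segment of 793 bp and another of 1017 bp lay inside the long gene body of Hoxa3. The remaining segment, 969 bp at 52191076 to 52192044, lay over the start of Hoxa4. Its GC content was 75.9% with 137 CpGs per kb, against 49.6% and 28.4 CpGs per kb over the whole stretch and 41.3% and 7.95 over chromosome 6.

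Within 3000 bp of their start sites, all 10 genes had peak cover in every library, where 6.98% of the 55450 annotated genes did. The window around the start sites of a gene was merged over all of its annotated transcripts, so its length differs between genes. Both E18.5 values lay below both E14.5 values in 5 of the 10, Hoxa3, Hoxa4, Hoxa5, Hoxa7 and Hoxa9. The same held for 74.0% of the 3871 genes covered in all 4 libraries and for 58.1% of the 9083 genes covered in at least 1, so the genes of the cluster showed this pattern no more often than genes in general. Genes whose windows are full in every library cannot show it. The change between stage means had a median of −17.7% over the 10 genes and of −36.0% over the 3871. Windows were full in all 4 libraries for 2 of the 10 genes, Hoxa10 and Hoxa11, against 6.79% of genes covered in all 4. Of the 5 that were full in both E14.5 libraries (Hoxa6, Hoxa7, Hoxa9, Hoxa10 and Hoxa11), these 2 stayed full at E18.5, and among all 483 genes full in both E14.5 libraries the share was 54.5%.

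**Figure D3:**
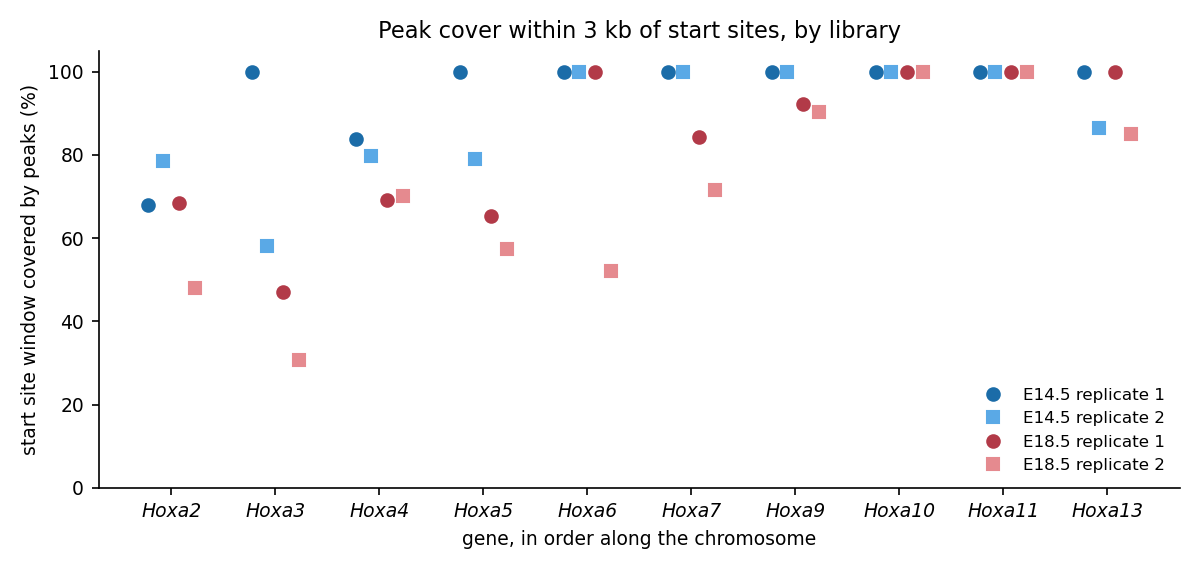
Share of each gene's start site window covered by peaks, in percent on the y axis, for the 10 Hoxa genes in chromosomal order, with blue points for E14.5 and red points for E18.5, circles for replicate 1 and squares for replicate 2. Hoxa10 and Hoxa11 are at 100% in every library, and Hoxa3 has the lowest value, 30.6% in E18.5 replicate 2.

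The anterior genes Hoxa2 and Hoxa3 pattern the hindbrain and the pharyngeal arches, Hoxa2 specifying the second arch and Hoxa3 acting in the thymus and parathyroid. Hoxa2 (ENSMUSG00000014704.10, 52162417 to 52164831) had 4075, 4708, 4101 and 2882 bp covered of a window of 6001 bp. E18.5 replicate 1 lay above E14.5 replicate 1, so the stages overlapped, and the start itself lay in a peak in every library. Hoxa3 (ENSMUSG00000079560.13, 52169062 to 52213336) has 4 start sites spread over a long gene body, the outermost of them between Hoxa6 and Hoxa7, and a window of 13242 bp. Its cover was 13242, 7707, 6222 and 4058 bp, lower in both E18.5 libraries, and 4, 2, 2 and 1 of its start sites were in a peak. The widest range between libraries in percent of the window was therefore seen at Hoxa3, from 100% to 30.6%. Means of 10475 ± 3914 bp and 5140 ± 1530 bp (SD, n = 2 each) gave an exact permutation p of 0.333. The difference of −5334.5 bp between stage means became −2567 bp without E14.5 replicate 1, and −1372 bp with an exact permutation p of 1 when only the 5′ end of the gene was used.

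Hoxa4 (ENSMUSG00000000942.10, 52189671 to 52191753), a regulator of cervical vertebral identity, was the gene whose start lay outside the peaks of all 4 libraries. Among the genes covered in all 4 libraries, 22.8% had their 5′ start outside every peak. Its window of 6001 bp was covered over 5032, 4780, 4147 and 4210 bp, with means of 4906 ± 178 bp at E14.5 and 4179 ± 44.5 bp at E18.5 (exact permutation p = 0.333). The gap over the start was 969, 1221, 1854 and 1791 bp long, longer in both E18.5 libraries. Peaks stood on both sides of the gap in every library.

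Hoxa5 (ENSMUSG00000038253.6, 52201754 to 52204587), which is needed for lung and tracheal development, had its start inside a peak at E14.5 and inside a break at E18.5, in each replicate. The break was 1076 bp in E18.5 replicate 1 and 1389 bp in E18.5 replicate 2, and its GC content was 61.6% and 59.8%. Of the 300-base promoter printed above, 300, 300, 27 and 0 bases lay in peaks. In E14.5 replicate 2 the peak began at 52204495, close to the start at 52204587, and a further break of 660 bp lay next to it. The window was covered over 6001, 4738, 3914 and 3449 bp, with means of 5370 ± 893 bp and 3682 ± 329 bp (SD, n = 2 each; exact permutation p = 0.333).

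Hoxa6 (ENSMUSG00000043219.9, 52206288 to 52208722) and Hoxa7 (ENSMUSG00000038236.8, 52214491 to 52221854) take part in patterning the thoracic axial skeleton. The Hoxa6 window of 6001 bp was full in 3 libraries and covered over 3133 bp in E18.5 replicate 2, where its start lay in a break of 1295 bp. Without that library there was no difference between the stages at Hoxa6. For Hoxa7 the window of 10403 bp was full in both E14.5 libraries and covered over 8765 and 7433 bp at E18.5. A break of 711 bp and of 1028 bp held the outermost of its 5 start sites in the E18.5 libraries, and the other 4 start sites were in peaks.

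In the posterior class, Hoxa9 (ENSMUSG00000038227.15, 52223100 to 52231089), a gene of haematopoietic progenitors and of the lumbar axis, had a window of 10901 bp that was full in both E14.5 libraries and covered over 10063 and 9837 bp at E18.5. All 5 start sites were in peaks in every library, and the uncovered bases lay at the far end of the gene. Within 1000 bp of the start sites the difference between the stages was 0. Hoxa10 (ENSMUSG00000000938.11, 52231197 to 52240854) and Hoxa11 (ENSMUSG00000038210.10, 52242106 to 52245810), which act in the uterus and in the limb, were covered over their whole windows of 13531 and 6016 bp in every library. Under every alternative list and window tried, the difference between the stages was 0 at both genes.

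Hoxa13 (ENSMUSG00000038203.18, 52257694 to 52260880), required for the digits and the urogenital tract, was covered over 6079, 5261, 6079 and 5161 bp of a window of 6079 bp. The values divided by replicate number and not by stage. In E14.5 replicate 2 a break of 818 bp (52260302 to 52261119) and in E18.5 replicate 2 a break of 918 bp (52260303 to 52261220) held all 3 start sites, and no such break was called in either replicate 1. The left ends of the breaks were adjacent bases. Of the promoter printed above, 300, 11, 300 and 0 bases lay in peaks, and the GC content of the breaks was 79.3% and 77.8%. Means of 5670 ± 578 bp and 5620 ± 649 bp differed by 50 bp, which is less than the spread between replicates (exact permutation p = 1).

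Counted over all 10 genes, 26, 21, 22 and 17 of the 27 annotated start sites lay in a peak. The share over all 132758 annotated start sites was not computed. As the lists also differ in length, these counts do not show a change particular to the cluster. Of the 10 RefSeq promoters found for 9 genes (Hoxa10 has 2), 6 lay whole inside peaks in all 4 libraries, namely those of Hoxa2, Hoxa7, Hoxa9, Hoxa10 and Hoxa11. They held from 4 to 21 CpGs. Those of Hoxa3, Hoxa5, Hoxa6 and Hoxa13 were partly or wholly outside a peak in at least 1 library and held from 20 to 45. The promoters listed for Hoxa7 and Hoxa9, at 52218524 and 52227321, belong to internal starts, with the 5′ starts at 52221854 and 52231089. The Hoxa7 5′ start lay in a break in both E18.5 libraries, with 61.9 and 52.5 CpGs per kb. Hoxa4, whose start was outside every peak, has no promoter here. The contrast in CpGs therefore rests on the starts that RefSeq lists. Among the RefSeq promoters with peak cover within 3000 bp in all 4 libraries, 43.9% lay whole inside peaks in all 4, at 37.8% of those with under 10 CpGs, 51.1% of those with 10 to 19 and 43.0% of those with 20 or more. The order seen among the Hoxa promoters was therefore not a gradient over all promoters. Over whole breaks the GC content was 54.3%, 52.0%, 49.1% and 50.4%, against 49.2%, 49.1%, 49.8% and 49.3% in the covered bases, so that breaks as a set were richer in GC at E14.5 by several points and differed little at E18.5.

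Of the RNA genes inside the stretch, those of the posterior part had the cover of their neighbours. Mir196b, whose microRNA targets Hox transcripts, lies inside the annotated Hoxa9 gene at 52230081 to 52230165. Its hairpin and window were in peaks in every library. Its 5p product is printed with the seed, bases 2 to 8, in capitals.
mmu-miR-196b-5p, chr6:52230129-52230150, minus strand: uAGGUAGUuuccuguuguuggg
Hoxa11os, antisense to Hoxa11, was also full in every library. Hottip, which in human cells helps to activate posterior HOXA genes from beyond HOXA13, was covered over 6010, 5192, 6010 and 5092 bp of 6010 bp, and it shared the break at Hoxa13. At the other end, Hotairm1 was covered over 3970, 4063, 1587 and 979 bp of 7623 bp. Inside the Hoxa3 body the antisense transcript Gm29430 was covered over 6616, 1777, 446 and 0 bp of 6616 bp, and Hoxaas3 over 11428, 6983, 6552 and 6481 bp of 12020 bp. In these 3 the E18.5 values were below the E14.5 values. The stages overlapped at Hoxaas2, which starts between Hoxa2 and Hoxa3 and was covered over 5308, 7391, 5690 and 3157 bp of 8837 bp.

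Beyond the stretch, peaks were called on the posterior side up to Evx1 but with gaps between them, and cover thinned on the other side. E18.5 replicate 1 had no peak between 52280400 and 52289208 or between 52296228 and 52306545. E18.5 replicate 2 had none between 52277796 and 52289187 or between 52297259 and 52307014. In E14.5 replicate 2 a gap lay between 52281436 and 52289153, and in E14.5 replicate 1 the gap after the block was 3471 bp. Evx1, a homeobox gene at the posterior end of the cluster, and its antisense transcript Evx1os had full windows of 6055 and 7328 bp in every library. On the anterior side, Skap2 was covered over 2786, 1866, 2256 and 1095 bp of a window of 24779 bp with none of its start sites in a peak, and the long non-coding RNA gene Halr1 over 2615, 726, 1670 and 922 bp of 6055 bp. Snx10 had 271 bp in E14.5 replicate 1 and none elsewhere. Farther out on the posterior side, Hibadh was covered over 1467, 774, 0 and 0 bp of 18475 bp, Jazf1 over 2956, 1690, 198 and 437 bp of 18003 bp, and Tax1bp1 over 0 bp in each.

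The Hoxb, Hoxc and Hoxd clusters were measured in the same way to see whether the Hoxa values were particular to it. The clusters differ in layout, and a share counts bases between genes too. The Hoxb stretch is 193941 bp long and holds no Hox gene between Hoxb13, ending at 96197447, and Hoxb9, starting at 96271457. Its longest break was 38315 and 37563 bp in the E18.5 libraries, against 7867 and 7480 bp in Hoxa. A lower Hoxb share is therefore not a measure of loss over Hox genes alone. In E14.5 replicate 1 the clusters were alike, with 91.1% of the Hoxa stretch, 92.9% of Hoxb, 96.9% of Hoxc and 90.9% of Hoxd covered. In E14.5 replicate 2 they were not, with Hoxa at 82.3%, Hoxb at 63.4%, Hoxc at 71.2% and Hoxd at 66.6%. Hoxa thus already stood above the other clusters in that E14.5 library. In E18.5 replicate 1 the shares were 75.0%, 40.3%, 48.5% and 36.7%. In E18.5 replicate 2 Hoxa stood at 66.1% and the others at 36.5%, 48.3% and 36.2%. The means at E18.5 were 50.9% lower than at E14.5 for Hoxb, 42.4% for Hoxc and 53.7% for Hoxd, against 18.6% for Hoxa. The log2 ratio of the Hoxa share over the Hoxb share was −0.03, 0.38, 0.90 and 0.86, so that its mean was higher by 0.70 at E18.5. Against Hoxc the ratio was −0.09, 0.21, 0.63 and 0.45, higher by 0.48. Against Hoxd it was 0.0031, 0.30, 1.03 and 0.87, higher by 0.80. Neither E18.5 value overlapped an E14.5 value in these 3 comparisons, and each had an exact permutation p of 0.333, also after Benjamini-Hochberg adjustment over the 3. Lists of equal covered length gave 0.63 against Hoxb, 0.47 against Hoxc and 0.06 against Hoxd, the last with an exact permutation p of 1.

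**Figure D4:**
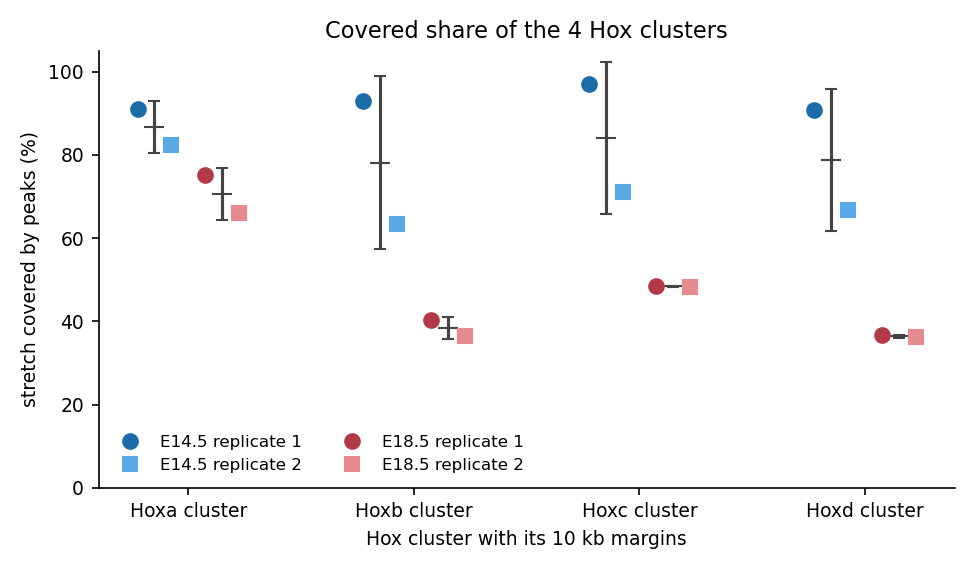
Share of each Hox cluster, with its 10 kb margins, covered by peaks in percent, with a point for each library and grey bars for the mean and SD of the 2 libraries of a stage. At E18.5 the Hoxa cluster lies at 75.0% and 66.1% and the other clusters between 36.2% and 48.5%.

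Gene by gene, no Hoxa gene of the 10 was without cover at E18.5. Hoxc4, Hoxc6, Hoxc8, Hoxd3, Hoxd4 and Hoxd8 had cover in their windows in each E14.5 library and 0 bp at E18.5. Hoxd3 and Hoxd4 have 5′ starts at 74711927 and 74711929, so their windows are not separate. No Hoxb gene had that pattern either, although Hoxb2 was covered in E14.5 replicate 1 only. The share of all genes with the pattern was not computed, so it is not shown to set Hoxa apart. In paralogue group 4, which sets cervical identity, Hoxa4 had 4147 and 4210 bp of 6001 bp at E18.5, while Hoxb4 had 0 and 1042 bp of 6001 bp and Hoxc4 and Hoxd4 had 0. For group 5, Hoxa5 had 3914 and 3449 bp of 6001 bp at E18.5, and Hoxb5 1126 and 549 bp of 6177 bp. Hoxc5 had 5260 and 5062 bp of a longer window of 12002 bp around 2 start sites. Only its 5′ start (chromosome 15, 102967443), close to the Hoxc10 start at 102966796, was in a peak at E18.5. Hoxc10 had the same 5260 and 5062 bp, so the Hoxc5 values do not show cover at its other start. Group 9 also differed, with 92.3% and 90.2% of the window covered at E18.5 at Hoxa9, 83.3% and 58.2% at Hoxb9, 57.2% and 63.3% at Hoxc9, and 42.2% and 54.8% at Hoxd9. In group 10, Hoxa10 and Hoxd10 had full windows in every library and Hoxc10 had 87.7% and 84.4% at E18.5. Farther to the posterior, Hoxb13, Hoxc11, Hoxc12, Hoxc13, Hoxd12 and Hoxd13 had full windows in every library like Hoxa11, and Hoxd11 had 8085 and 8767 bp of 8767 bp at E18.5. Hoxa13 was the group 13 gene with an interrupted window.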

How the data were processed

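H3K27me3 ChIP-seq peak lists of 4 libraries of cultured wild-type mouse dermal fibroblasts were analysed, grouped by the stage in the sample labels (2 libraries each). Per the submitters' processing notes, reads were aligned to mm10 (GRCm38) with Bowtie2 2.3.5.1 and handled with SAMtools 1.9, and the authors called broad peaks with MACS2 2.2.7.1 at a q of 0.01, separately for each library. The control used for peak calling is not given in the sources used here. The study's methods state that E18.5 samples, named together with mutant ones, were subsampled to the read depth of the other samples, and whether the E18.5 libraries used here were among them is not clear from the text. Culture medium, chromatin shearing and library kit differ between the labels and the study's methods. The deposited columns hold a display score (not used), the fold enrichment of the signal over background, and the −log10 p-value and −log10 q-value of each peak. Signal, reads and depth were not analysed here, so a covered base means a base inside a called peak.

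Covered length, breaks and cover within 3000 bp of start sites (GENCODE mouse release 21, 55450 genes) were computed with Python 3.11.15 and numpy 2.4.6. The code was tested on simulated peak lists with known answers. Stages were compared with two-sided exact permutation tests, 3 comparisons with other clusters being adjusted by Benjamini-Hochberg. The 10 genes are named with every value, together with the annotated genes in and next to the stretch and the other Hox genes where they differ. The members and gene lists were chosen with earlier results of these data known, and the border at Hoxa9 after seeing the values. Stricter thresholds, minimum widths, joined peaks, equal lists, other windows and margins, a replicate block and leaving out each library were tried. Promoters and microRNA sequences are from RefSeq tables of GRCm38.p6.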

Additional observations from a re-analysis of the deposited data

How the results depend on the processing

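Over the alternatives, the direction of the difference in covered length was the same in all 13, with the mean from 8.02% (lists of equal covered length) to 37.0% (−log10 q of at least 5) lower at E18.5, and from 13.4% to 23.7% with a library left out. The exact permutation p was from 0.333 to 1. The difference in the number of breaks (5 more at E18.5) was reversed to −1.5 with a −log10 q of at least 5 and ranged from 0 to 10 with a library left out. It was 0 without E14.5 replicate 1. The count of genes lower in both E18.5 libraries, 5 of 10, was 2 with peaks within 3000 bp joined, 3 in lists of equal covered length, 3 with the 5′ end of the gene only, and from 5 to 8 with a library left out, 8 being without E18.5 replicate 1. The share of genes covered in at least 1 library that were lower in both went from 58.1% to 26.2% in lists of equal covered length, to 90.6% without E14.5 replicate 2 and to 79.7% without E14.5 replicate 1. At single genes, lists of equal covered length reversed Hoxa2 to 3492 bp and Hoxa4 to 677 bp higher at E18.5, and Hoxa13, from −509 to 409 bp with a library left out, turned to 359 bp higher without E14.5 replicate 1 and 409 bp higher without E18.5 replicate 2. With a −log10 q of at least 5, 6 of the 10 genes had cover in every library, and with joined peaks 7 windows were full in all 4. The log2 differences between Hoxa and the other clusters kept their sign in all 12 alternatives each, from 0.56 to 1.07 for Hoxb, 0.084 to 0.63 for Hoxc and 0.062 to 0.99 for Hoxd, and with a library left out from 0.50 to 0.91, 0.33 to 0.63 and 0.65 to 0.95. The posterior over anterior difference was from 0.15 to 3.02, and from 0.37 to 0.71 with a library left out. The causes of these shifts were not tested. With the replicate number as a replicate block the covered length was again 18.6% lower, with an exact permutation p of 0.5, the smallest it can give. The numbers are shared labels only, and over 3871 genes the difference between replicates 1 and 2 at E14.5 and at E18.5 had a Pearson r of 0.098 across genes, which are not independent replicates.

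With 2 libraries a stage, the exact permutation tests cannot go below 0.333. Peak lists hold no depth, and a gap between peaks is a place with no call, whether or not the mark is there. List length differed with stage, so the stage and the length of a list cannot be told apart.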
